A study of Mus musculus with 20 samples.

Results

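A set of 10 genes of secreted matrix proteins was followed in prostate tumor cells taken from mouse bone: Fn1, Spp1, Thbs1, Efemp1, Crispld2, Tnc, Postn, Sparc, Ecm1 and Hspg2. They are 10 of the 17104 named genes in the deposited tables. Efemp1 and Crispld2 were chosen for their higher level in Resist than in naive tumors, so their values in that comparison are given as a description without a test. The other 8 were listed by symbol as matrix proteins, with earlier results of these data known. The leading level of Fn1 and Spp1 is therefore a description. The cells were MycCaP-Bo, a line from a Myc-driven mouse prostate tumor of FVB background that was selected for growth in bone and labeled with luciferase and the infrared fluorescent protein iRFP. It was injected into the heart of mice aged 4 to 6 weeks, and CD45- iRFP+ cells were sorted from the bone lesions, with 3 mice pooled for each library. There were 5 libraries in each of 4 groups. Naive tumors (naive) had vehicle. Resistant tumors (Resist) had enzalutamide, a drug used against prostate cancer, at 30 mg/kg for 18 d. Resist-Mac tumors had the same enzalutamide course with clodronate liposomes, which kill phagocytic cells, at 1 mg per mouse in the last 4 d. The group written Naive-Mac, naive tumors whose macrophages were depleted, had vehicle and clodronate liposomes for 4 d without enzalutamide. The whole study rests on 1 cell line, so the libraries are replicate pools of mice and not of tumors of different origin.

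Fibronectin, encoded by Fn1, is the large adhesive glycoprotein that cells assemble into fibrils through α5β1 integrin, and osteopontin, encoded by Spp1, is a small phosphorylated glycoprotein of bone and of many tumors that binds αv integrins and CD44. Around them act matricellular proteins, which tune the contact between cell and matrix more than they build it: thrombospondin 1 (Thbs1), tenascin C (Tnc), periostin (Postn), SPARC (Sparc) and extracellular matrix protein 1 (Ecm1). EFEMP1, also called fibulin 3, is a secreted glycoprotein of the fibulin family, CRISPLD2 is a secreted cysteine-rich protein, and perlecan (Hspg2) is a heparan sulfate proteoglycan of basement membranes.

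The stretches upstream of the start sites are shown for the most abundant member with an entry, Spp1, and for the 3 members that stood higher in Resist than in naive tumors without overlap and had an entry, Efemp1, Crispld2 and Sparc. Of the 10 members, 8 had an entry in the RefSeq table used (GRCm38.p6), and each sequence gives the 250 bases before the first start site listed. Capitals mark matches on either strand to the CCAAT box, to the TATA box (TATAAA), to the GC box (GGGCGG), to a RUNX site (the letters AACCACA) or to an AP-1 site (the letters TGANTCA with C or G as N). The Spp1 window is chr5:104434861-104435110 (+ strand), the Efemp1 window chr11:28852955-28853204 (+ strand), the Crispld2 window chr8:119992188-119992437 (+ strand) and the Sparc window chr11:55420081-55420330 (- strand, shown as its reverse complement).
Spp1: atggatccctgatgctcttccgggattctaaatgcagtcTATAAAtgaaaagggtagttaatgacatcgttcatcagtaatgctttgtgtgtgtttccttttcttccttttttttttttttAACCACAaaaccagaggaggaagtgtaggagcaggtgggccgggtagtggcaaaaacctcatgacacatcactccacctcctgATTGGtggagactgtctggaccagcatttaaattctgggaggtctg
Efemp1: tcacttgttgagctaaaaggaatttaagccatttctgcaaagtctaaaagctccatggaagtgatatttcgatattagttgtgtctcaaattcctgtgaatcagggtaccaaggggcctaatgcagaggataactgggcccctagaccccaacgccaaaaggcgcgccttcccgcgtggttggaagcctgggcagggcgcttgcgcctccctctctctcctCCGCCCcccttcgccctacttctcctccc
Crispld2: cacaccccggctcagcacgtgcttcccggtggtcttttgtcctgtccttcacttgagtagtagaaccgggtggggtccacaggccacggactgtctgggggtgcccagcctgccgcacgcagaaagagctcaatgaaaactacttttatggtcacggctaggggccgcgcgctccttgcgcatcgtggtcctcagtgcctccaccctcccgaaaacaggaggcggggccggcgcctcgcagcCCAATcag
Sparc: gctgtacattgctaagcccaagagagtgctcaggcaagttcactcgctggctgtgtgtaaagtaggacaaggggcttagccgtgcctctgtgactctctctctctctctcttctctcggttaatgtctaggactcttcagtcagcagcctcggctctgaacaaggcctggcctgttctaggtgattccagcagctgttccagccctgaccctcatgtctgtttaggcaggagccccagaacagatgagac

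The Spp1 window held a RUNX match at -129 to -123 from the start site, a CCAAT match on the minus strand at -46 to -42 and a TATAAA match at -211 to -206. RUNX letters were found in 4.40% of the 32851 windows of this length in the table, CCAAT in 33.9% and TATAAA in 12.4%. The Efemp1 window held a GC box on the minus strand at -29 to -24, a motif found in 32.7% of windows. The Crispld2 window held CCAAT at -8 to -4, and the Sparc window matched none of these letters. None of the 3 windows matched an AP-1 site, which was found in 4.46% of all windows. The 3 members that were higher in Resist tumors therefore shared none of the motifs searched, which says only that these letters are not in these windows.

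Expression was deposited as FPKM, in which reads are divided by the length of the transcript and by the size of the library, so levels of different genes can be set side by side per length of transcript. Depth is unknown because FPKM carries no read counts. Naive and Resist libraries formed batch 1 and shared a table, Resist-Mac libraries were batch 2 and Naive-Mac libraries batch 3. Condition and batch cannot be told apart in any comparison other than Resist vs. Naive. In those comparisons the change of a gene also followed its transcript length over all genes tested: Spearman's rho between length and log2 change was 0.642 for Resist vs. Resist-Mac, 0.709 for Naive vs. Naive-Mac and 0.607 for Resist-Mac vs. Naive-Mac, against 0.155 for Resist vs. Naive. The Fn1 transcript is 8315 bases long and that of Spp1 1507, so values after a correction for length and GC content are printed beside them. An antisense gene model overlaps Fn1, and 7 of the 10 members overlap another gene. Crispld2 overlaps both an antisense gene and a protein-coding gene of the same strand. Whether counting used strand is not given in the sources used here. The libraries expressed Krt8 and Cldn3 as prostate epithelial cells do, with group means of 107 to 317 and 254 to 703 FPKM, whereas Cdh1 and Krt18 stayed at or under 0.106 FPKM in each group mean. Summed FPKM of 12 macrophage markers (11 listed in the Resist-Mac table) ran from 21.9 to 100.7 in naive, 12.2 to 56.7 in Resist, 38.4 to 799 in Resist-Mac and 6.17 to 519 in Naive-Mac libraries, and most of it was Lyz2, which neutrophils also express, with group means of 38.1, 21.1, 304 and 223 FPKM. The macrophage markers Adgre1, Csf1r and C1qa averaged at most 1.13 FPKM in any group, and 7 to 10 of the markers averaged under 1 FPKM. Mertk was higher, with group means of 5.73 FPKM in naive, 6.88 in Resist, 2.87 in Resist-Mac and 1.13 in Naive-Mac tumors. Cd68 averaged 1.07, 1.47, 2.37 and 0.78 FPKM in the same order. Summed FPKM of 9 neutrophil markers ran from 176 to 1268 in naive, 61.4 to 602 in Resist, 405 to 8769 in Resist-Mac and 58.6 to 6156 in Naive-Mac libraries. In sorted bulk RNA, fewer cells of a type and less RNA per cell cannot be told apart. Naive-Mac library 2 stood apart, with the highest Fn1, Spp1, Efemp1, Crispld2, Sparc and Ecm1 and the lowest neutrophil sum of its group. Resist library 2 stood apart in Spp1, and naive library 5 in Ecm1.

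Spp1 and Fn1 were the leading matrix mRNAs of these cells together with Ccn1, an inducible matricellular protein, and Fgb, the fibrinogen beta chain. Of 250 core matrix genes written down (glycoproteins, collagens and proteoglycans), 179 are listed in all 3 tables and were summed. Spp1 was first among them in 16 of the 20 libraries. Over the means of the 4 groups, Spp1 averaged 2144 FPKM, Fgb 976, Ccn1 970 and Fn1 764, and the next gene, Mfge8, averaged 241. Tinagl1 (168 FPKM), Mgp (122), Ltbp3 (118), Pcolce (114) and Ccn2 (107) completed the leading 10, and Crispld2 came 11th with 81.8. Fn1 was 2nd or 3rd in every Resist library, 2nd to 4th in naive, 3rd or 4th in Resist-Mac and 5th to 8th in Naive-Mac libraries.

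Fn1 and Spp1 together made up 40.4% ± 4.50 (SD, n = 5) of core matrix FPKM in naive libraries, 45.5% ± 9.23 (SD, n = 5) in Resist, 39.4% ± 12.3 (SD, n = 5) in Resist-Mac and 50.3% ± 8.16 (SD, n = 5) in Naive-Mac tumors. The ranges overlapped in every pair of groups except naive and Naive-Mac, where the highest naive library had 45.0% and the lowest Naive-Mac library 45.3%. With Ccn1 and Fgb added, 4 genes held 67.5% to 79.4% of the matrix FPKM in every library. The other 8 members together held 1.39% ± 0.159 (SD, n = 5) in naive libraries, 2.53% ± 0.404 (SD, n = 5) in Resist, 2.06% ± 0.388 (SD, n = 5) in Resist-Mac and 1.03% ± 0.228 (SD, n = 5) in Naive-Mac tumors. Between 9 and 17 of the 179 genes were enough to reach 90% of the matrix FPKM of a library.

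**Figure D1:**
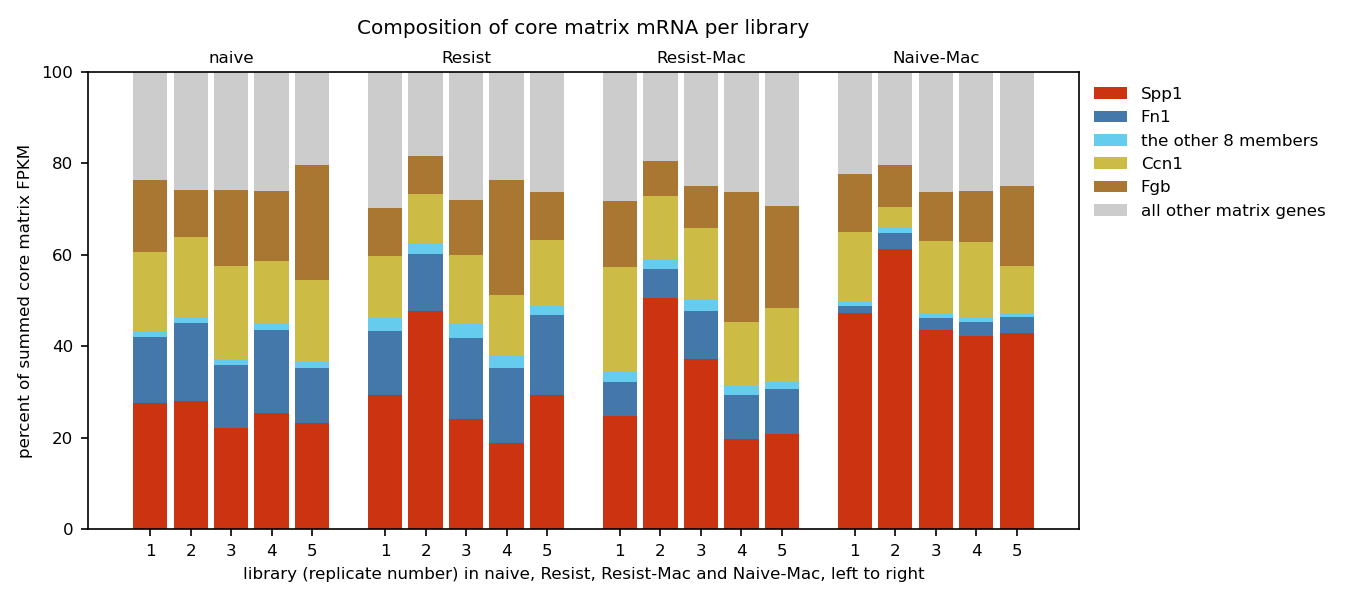
Stacked bars give, for each of the 20 libraries, the percent of summed core matrix FPKM held by Spp1, Fn1, the other 8 members, Ccn1, Fgb and all other matrix genes. The Spp1 block runs from 18.8% to 61.2%, and the Fn1 block is thinnest in the Naive-Mac libraries, at 1.62% to 3.63%.

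In FPKM as deposited, the split between the leading pair differed between groups more than their sum did. Fn1 held 15.1% ± 2.49 (SD, n = 5) of matrix FPKM in naive, 15.6% ± 2.29 (SD, n = 5) in Resist, 8.81% ± 1.73 (SD, n = 5) in Resist-Mac and 2.92% ± 0.802 (SD, n = 5) in Naive-Mac tumors. Spp1 held 25.3% ± 2.59 (SD, n = 5), 29.9% ± 10.9 (SD, n = 5), 30.6% ± 13.1 (SD, n = 5) and 47.4% ± 7.96 (SD, n = 5) in the same order. The Naive-Mac share of Fn1 lay below every library of the other groups. The size of the split depended on the processing. Correcting for length and GC content moved the naive minus Naive-Mac difference in log2 Spp1 to Fn1 ratio from -3.30 to -0.48. The Resist-Mac minus Naive-Mac difference went from -2.34 to -0.49. Resist minus Resist-Mac went from -0.84 to 0.31, and Resist minus naive from 0.12 to 0.30. Against the FPKM of the 13850 genes listed in all 3 tables, the core matrix list held 1.28% ± 0.289 (SD, n = 5) in naive libraries, 1.84% ± 0.421 (SD, n = 5) in Resist, 0.984% ± 0.115 (SD, n = 5) in Resist-Mac and 0.440% ± 0.148 (SD, n = 5) in Naive-Mac tumors. Summed FPKM of all named genes ran from 509755 to 530961 in naive and 481161 to 511777 in Resist libraries. It ran from 617494 to 761510 in Resist-Mac and 882276 to 1040436 in Naive-Mac libraries, so the percents rest on unlike totals. The matrix sum itself averaged 6553 FPKM in naive, 9014 in Resist, 6695 in Resist-Mac and 4080 in Naive-Mac libraries.

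Which of the pair comes first depends on the measure. FPKM divides reads by transcript length, and by that measure Spp1 was above Fn1 in 20 of 20 libraries. Weighting each gene by its transcript length, which approximates the share of sequenced bases, gave Fn1 33.9% ± 4.23 (SD, n = 5) of the matrix signal in naive and 35.2% ± 2.29 (SD, n = 5) in Resist tumors, where Spp1 had 10.4% ± 1.01 (SD, n = 5) and 12.8% ± 6.43 (SD, n = 5). In Resist-Mac tumors the weighted shares were 22.7% ± 3.03 (SD, n = 5) for Fn1 and 15.1% ± 8.45 (SD, n = 5) for Spp1. In Naive-Mac tumors the order turned, with 10.1% ± 2.64 (SD, n = 5) for Fn1 and 30.0% ± 6.51 (SD, n = 5) for Spp1.

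Fn1 was the 1 member of the 10 whose libraries separated all 4 groups. Its FPKM in the 5 naive libraries was 839, 969, 789, 1155 and 1092, and in the 5 Resist libraries 1196, 1520, 1371, 1573 and 1230. In the Resist-Mac libraries it was 469, 498, 729, 696 and 538, and in the Naive-Mac libraries 57.4, 226, 94.0, 118 and 116. No library of any group overlapped with another group, and the order was Resist, naive, Resist-Mac, Naive-Mac. Within groups, Fn1 had a Spearman's rho with the neutrophil marker sum of -0.3 in naive and 0.4 in Resist libraries. The rho was -0.7 in Resist-Mac and -0.8 in Naive-Mac libraries. The sum of the erythroid markers listed, mostly Hba-a1, gave -0.3 in naive, -0.7 in Resist and -0.9 in both depleted groups. Its median was 105 FPKM in naive, 165 in Resist, 201 in Resist-Mac and 358 in Naive-Mac libraries. The part of those cells in the Fn1 values was not tested.

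In Resist vs. Naive, which asks what differs in cells of tumors that grew through enzalutamide, Fn1 rose 1.42-fold by group means, or 0.52 on the log2 scale (limma adjusted p = 0.0103, SE 0.12). This passed the p threshold but stayed under the 1.5-fold change needed for a call. With all 4 groups in one fit it did not pass the p threshold (limma adjusted p = 0.181, SE 0.23). Against Resist-Mac tumors the value for Resist was 1.25 (limma adjusted p = 5.15e-05, SE 0.14) and Fn1 was called. For Naive vs. Naive-Mac the value was 3.10 (limma adjusted p = 1.76e-07, SE 0.27), a 7.93-fold difference of means. Resist-Mac vs. Naive-Mac gave 2.37 (limma adjusted p = 1.05e-05, SE 0.28). The correction for length and GC content lowered these log2 changes to 0.35, 0.66, 1.24 and 0.96, and it left the calls and the directions as they were. The size of the Fn1 difference across tables therefore rests on that choice.

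As deposited, Spp1 did not separate the groups. Its SD was 19.0% of the mean in naive, 60.6% in Resist, 53.1% in Resist-Mac and 53.8% in Naive-Mac libraries. For Fn1 the same measure was 16.2%, 12.2%, 20.2% and 51.5%, so the spread was wider for Spp1 mainly in Resist and Resist-Mac. Spp1 FPKM was 1592, 1609, 1269, 1616 and 2139 in naive and 2499, 5820, 1856, 1800 and 2087 in Resist libraries. It was 1545, 3864, 2551, 1405 and 1156 in Resist-Mac and 1668, 3943, 1485, 1611 and 1367 in Naive-Mac libraries. All 4 groups overlapped, and library 2 was the highest of its group in Resist, Resist-Mac and Naive-Mac, although libraries with the same number are not matched by the labels.

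For Spp1, Resist vs. Naive gave a log2 change of 0.63 (limma adjusted p = 0.123, SE 0.27) and Resist vs. Resist-Mac gave 0.41 (limma adjusted p = 0.394, SE 0.37). Naive vs. Naive-Mac gave -0.19 (limma adjusted p = 0.493, SE 0.24) and Resist-Mac vs. Naive-Mac gave 0.04 (limma adjusted p = 0.926, SE 0.34). Without Resist library 2, Resist vs. Naive gave 0.33 and Resist vs. Resist-Mac 0.11. None was called by limma, whereas a noise-distribution probability over 0.8 called Spp1 higher in Resist than in naive tumors. The standard errors leave room for changes of the size seen in Fn1 in Resist vs. Naive. Correcting for length and GC content turned the value in Naive vs. Naive-Mac to 0.83 (limma adjusted p = 0.0160), which was called. In Resist vs. Resist-Mac the corrected value of Spp1 was 0.95 (limma adjusted p = 0.0679, SE 0.35), not called, where that of Fn1 was 0.66. The contrast between the 2 genes in that comparison therefore rests on the correction chosen. Within Resist libraries the order of Spp1 ran against the neutrophil marker sum (Spearman's rho -1.0 over 5 libraries), and the rho was 0.0 in naive, -0.6 in Resist-Mac and -0.3 in Naive-Mac libraries. The macrophage sum gave -1.0, 0.0, -0.6 and -0.4 in the same order. The part of those cells in the Spp1 values was not tested.

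**Figure D2:**
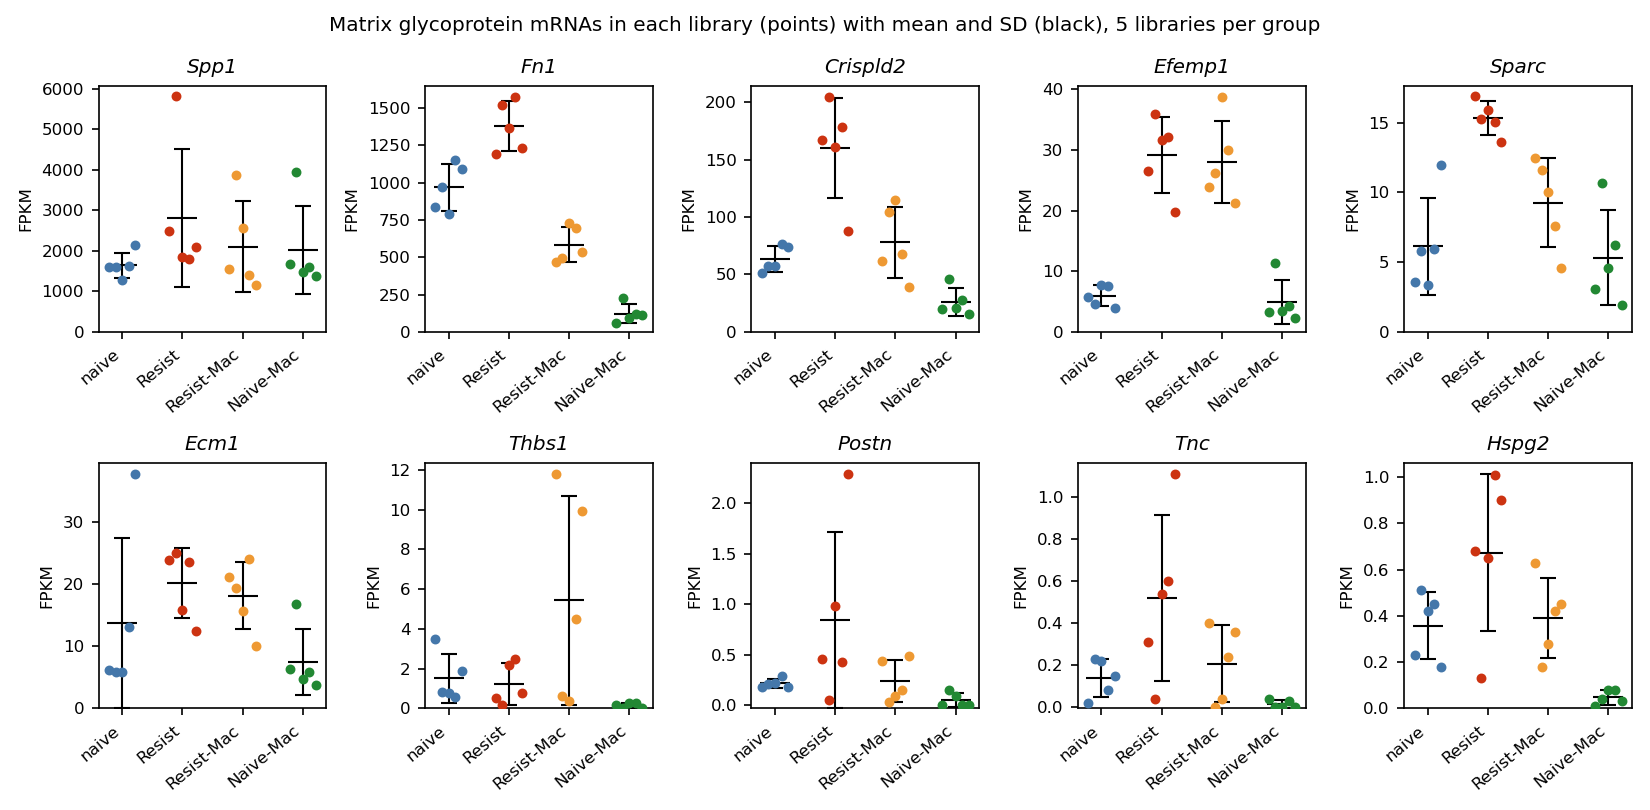
Points give FPKM of each member in each of the 5 libraries of naive, Resist, Resist-Mac and Naive-Mac tumors on linear axes, with the mean and SD in black. Fn1 separates all 4 groups, Spp1 overlaps in all of them with single high libraries of 5820, 3864 and 3943 FPKM, and Postn, Tnc and Hspg2 stay under 2.3 FPKM.

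The ratio of Spp1 to Fn1 puts both into a single number per library that does not depend on library scaling. Spp1 was 1.71 ± 0.227 (SD, n = 5) times Fn1 in naive, 2.02 ± 1.07 (SD, n = 5) times in Resist, 3.74 ± 2.34 (SD, n = 5) times in Resist-Mac and 17.6 ± 6.78 (SD, n = 5) times in Naive-Mac tumors. On the log2 scale the mean ratio was 0.12 higher in Resist than in naive tumors (exact two-sided permutation test, p = 0.770, adjusted over 4 comparisons 0.770). It was 0.84 lower in Resist than in Resist-Mac tumors, a log2 difference of -0.84 (exact two-sided permutation test, p = 0.111, adjusted 0.148), and without Resist library 2 the difference was -1.11 with p = 0.0317 in the same exact test. The log2 difference was -3.30 between naive and Naive-Mac tumors and -2.34 between Resist-Mac and Naive-Mac tumors, each with no overlap and p = 0.00794, the smallest that 5 against 5 libraries can give in this exact permutation test (adjusted 0.0159). After the length and GC correction the differences were 0.30, 0.31, -0.48 and -0.49, so that of Resist vs. Resist-Mac changed sign. Their p in the exact permutation test was 0.397, 0.397, 0.0317 and 0.0714 in the same order, not adjusted over the 4 comparisons.

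**Figure D3:**
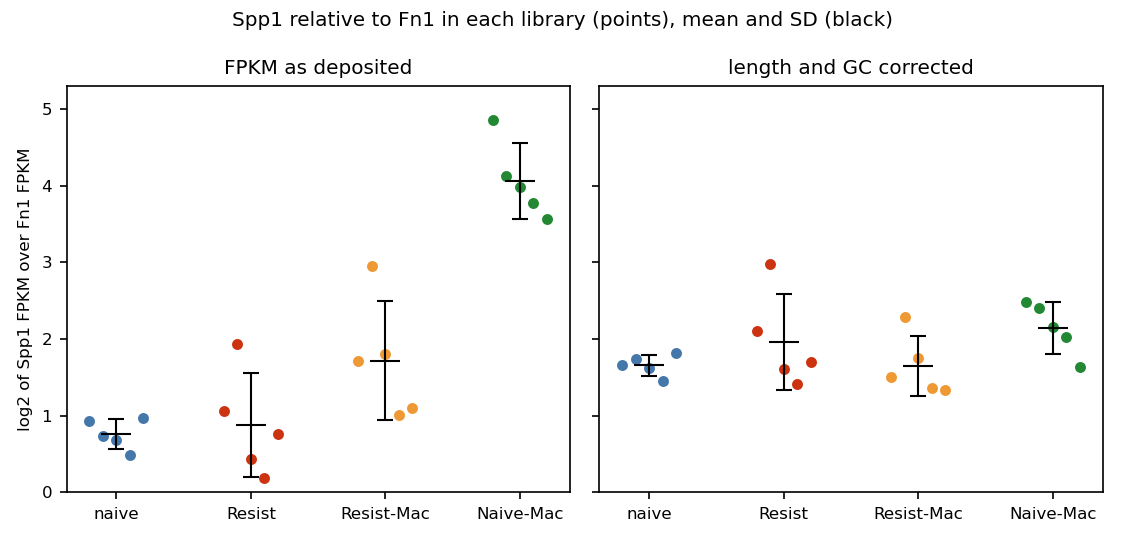
Points give the log2 ratio of Spp1 to Fn1 FPKM in each library, as deposited (left) and after the length and GC correction (right), with mean and SD in black. As deposited, the Naive-Mac libraries lie at 3.56 to 4.86 and the naive libraries at 0.49 to 0.97, and after correction the Naive-Mac libraries lie at 1.63 to 2.49.

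Of the 8 members not chosen on Resist vs. Naive, 5 passed the filter of a mean of 1 FPKM in that comparison, and 1 of these, Sparc, was called higher. The background over all tested genes was 5.25% higher and 1.11% lower. For 2 of the 5, Fn1 and Sparc, the libraries of both groups were fully apart, against 12.8% of all genes tested. With so few members, these counts describe the members and are no result about matrix glycoproteins as a group. Among the other core matrix genes, 18 of 58 tested were called higher and 2 lower, with a median log2 change of 0.39 against 0.03 over all genes. Over the same groups the median sum of the 14 osteoblast and stromal markers went from 13.1 to 26.1 FPKM and that of 9 endothelial markers from 2.05 to 4.35. Of the 14, Runx2 alone averaged 7.83 FPKM in naive and 9.83 in Resist tumors. Col1a1, Col1a2 and Col3a1 of that list are core matrix genes themselves, so the sum is not independent of these counts. The part of stromal and endothelial cells in these counts was not tested.

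Sparc, a collagen-binding matricellular protein, had 3.61, 5.79, 3.37, 5.91 and 11.96 FPKM in naive and 16.9, 15.2, 15.9, 15.1 and 13.6 in Resist libraries. Every Resist library lay above every naive library, and naive library 5 came closest. The log2 change was 1.31 (limma adjusted p = 0.00335, SE 0.24). Resist-Mac libraries had 12.5, 11.6, 10.1, 7.61 and 4.57 FPKM, all below the Resist libraries. That difference was called, at 0.73 on the log2 scale (limma adjusted p = 0.0120, SE 0.20), but not without Resist-Mac library 5, where it was 0.53 and under the 1.5-fold limit. With all 4 groups in one fit the adjusted p was 0.0616 in limma. Naive-Mac libraries had 3.10, 10.7, 4.58, 6.26 and 1.93 FPKM and overlapped with naive libraries, at 0.22 on the log2 scale (limma adjusted p = 0.582, SE 0.36).

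Efemp1 had 5.80, 4.57, 7.81, 7.60 and 4.00 FPKM in naive and 26.5, 35.9, 31.7, 32.1 and 19.7 in Resist libraries, which is the pattern it was chosen for. The means differed 4.90-fold. Resist-Mac libraries had 23.9, 26.2, 38.7, 30.0 and 21.3 FPKM, which overlap with the Resist libraries that the choice had used. Resist and Resist-Mac tumors differed by 0.06 on the log2 scale (limma adjusted p = 0.809, SE 0.18). After the length and GC correction that difference was 0.43 (limma adjusted p = 0.106, SE 0.18), not called. Naive-Mac libraries had 3.34, 11.4, 3.51, 4.27 and 2.33 FPKM. Resist-Mac vs. Naive-Mac uses none of the libraries of the choice, and there Efemp1 was called with 2.42 on the log2 scale (limma adjusted p = 1.48e-05, SE 0.29), and at 2.62 after the length and GC correction. Naive vs. Naive-Mac, which shares the naive libraries with the choice, gave 0.35 (limma adjusted p = 0.296) and no call, but Efemp1 was called higher in naive at 0.96 after the length and GC correction (limma adjusted p = 0.0158) and at 0.66 without Naive-Mac library 2 (limma adjusted p = 0.00815).

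Crispld2 had 51.2, 57.5, 57.1, 76.7 and 74.2 FPKM in naive and 167, 205, 161, 178 and 87.8 in Resist libraries, again the values it was chosen on, with a 2.52-fold difference of means. Resist-Mac libraries had 62.0, 105, 115, 68.1 and 39.6 FPKM and Naive-Mac libraries 19.9, 46.2, 20.4, 28.2 and 15.4. Crispld2 was called 1.07 higher (log2, limma adjusted p = 0.00930, SE 0.28) in Resist than in Resist-Mac tumors. It was also called 1.34 higher (log2, limma adjusted p = 0.000148, SE 0.23) in naive and 1.55 higher (log2, limma adjusted p = 0.000686, SE 0.31) in Resist-Mac than in Naive-Mac tumors. The first and second of these share libraries with the choice. None of the 3 calls was kept after the length and GC correction, at log2 changes of 0.91, 0.48 and 0.76 and 0.0575, 0.0773 and 0.0868 as limma adjusted p. Unlike Efemp1, Crispld2 was near its naive level in Resist-Mac tumors as deposited, and the comparison of the 2 genes was not tested. After the correction Resist vs. Resist-Mac was 0.91 for Crispld2 and 0.43 for Efemp1, neither of them called.

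Ecm1, a secreted glycoprotein that binds other matrix proteins, had 6.21, 5.80, 5.82, 13.0 and 37.6 FPKM in naive and 23.8, 24.9, 15.9, 23.6 and 12.3 in Resist libraries. Naive library 5 was above every Resist library and the other 4 were at or below 13.0. The log2 change was 0.86 (limma adjusted p = 0.173, SE 0.42) with that library and 1.30 (limma adjusted p = 0.00767) without it. Resist-Mac libraries had 21.2, 19.4, 15.7, 24.1 and 10.1 FPKM and Naive-Mac libraries 6.26, 16.8, 4.65, 5.87 and 3.69. Ecm1 was called in Resist-Mac vs. Naive-Mac, with 1.30 on the log2 scale (limma adjusted p = 0.00325, SE 0.32), and at 1.10 after the length and GC correction.

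Thbs1, a trimeric glycoprotein released by platelets and many other cells, had 3.48, 0.81, 0.79, 0.58 and 1.89 FPKM in naive and 0.51, 0.15, 2.20, 2.47 and 0.79 in Resist libraries. Resist-Mac libraries had 11.8, 0.62, 0.35, 4.51 and 9.95 FPKM, and Naive-Mac libraries 0.15, 0.03, 0.29, 0.28 and 0.04. Resist-Mac libraries 1, 4 and 5 were above every library of the other groups. Within naive, Resist and Resist-Mac tumors the order of the 5 libraries by Thbs1 was the same as by the neutrophil marker sum, and in Naive-Mac tumors the rho was 0.90 over 5 libraries. With the macrophage marker sum the rho was 1.0 in all 4 groups, and with the sum of the osteoclast markers listed it was 0.90 to 1.0. The Resist-Mac libraries with 11.8 and 9.95 FPKM of Thbs1 had neutrophil sums of 8769 and 4879, and the library with 0.35 had 405. All 8 platelet markers averaged under 1 FPKM in naive, Resist and Naive-Mac tumors, as did the 7 of them listed in the Resist-Mac table. The part of neutrophils, macrophages and osteoclasts in the Thbs1 level was not tested.

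**Figure D4:**
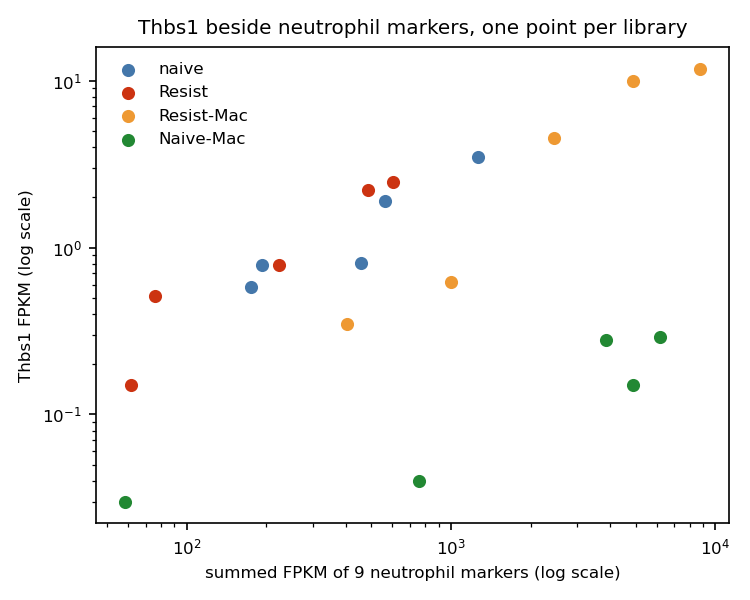
Each point is a library, with the summed FPKM of 9 neutrophil markers on the x axis and Thbs1 FPKM on the y axis, both on log scales. Thbs1 goes up with the sum inside each group, and Naive-Mac libraries lie lower at a given sum than libraries of the other groups, at no more than 0.29 FPKM.

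Thbs1 was called in Resist-Mac vs. Naive-Mac (log2 change 1.94, limma adjusted p = 0.00725, SE 0.55), where it passed the filter only through its Resist-Mac level, so the call is no support for a difference. With no filter the limma adjusted p was 0.0202 there, and with the length and GC correction its adjusted p was 0.169 in limma. Its log2 change was -1.12 (limma adjusted p = 0.156, SE 0.61) between Resist and Resist-Mac tumors and -0.19 (limma adjusted p = 0.739, SE 0.35) between Resist and naive tumors. It did not pass the filter in Naive vs. Naive-Mac, and with no filter it was called there at 1.01 (limma adjusted p = 0.00619).

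Tnc, Postn and Hspg2, 3 proteins that are abundant where fibroblasts, osteoblasts or endothelium lay down matrix, passed the filter in no comparison. Postn had 0.18, 0.21, 0.22, 0.29 and 0.18 FPKM in naive and 0.46, 0.05, 0.98, 0.43 and 2.29 in Resist libraries. Tnc ranged from 0.02 to 0.23 in naive and from 0.04 to 1.11 in Resist libraries, and Hspg2 from 0.18 to 0.51 and from 0.13 to 1.01. In Naive-Mac libraries Postn and Tnc were each listed at 0 in 3 of 5 libraries, and Hspg2 reached at most 0.08 FPKM. Resist library 5 was the highest in Postn and Tnc, and it also had the highest sum of 14 osteoblast and stromal markers in the series, 40.1 FPKM against 12.6 to 28.3 in the other Resist libraries. Resist library 2 was the lowest of its group in all 3 genes and in that sum. The median of that sum was 13.1 in naive, 26.1 in Resist, 14.3 in Resist-Mac and 3.90 in Naive-Mac tumors, and 9 to 12 of its markers averaged under 1 FPKM. Col1a1 averaged 1.84 FPKM in naive and 5.95 in Resist tumors, Col1a2 1.36 and 4.33, and Col3a1 0.37 and 1.86. Runx2 averaged 7.83 FPKM in naive, 9.83 in Resist, 5.96 in Resist-Mac and 1.28 in Naive-Mac tumors. The defining osteoblast marker Bglap was at 0 in every naive and Naive-Mac library and averaged 0.042 FPKM in Resist and 0.104 in Resist-Mac tumors. The part of stromal cells in these low levels was not tested.

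In Resist vs. Resist-Mac, which asks what differs in resistant tumor cells after macrophages were depleted, 5 of the 8 members not chosen on Resist vs. Naive were tested and 2 were called higher in Resist, Fn1 and Sparc. The background over all tested genes was 9.71% higher and 12% lower in Resist. Both also had groups that did not overlap, against 29.7% of all genes tested. In Naive vs. Naive-Mac 4 were tested and Fn1 was called higher in naive, against 37.5% of genes called higher and 22.1% lower, and Fn1 was the 1 of these 4 without overlap, against 66% of genes. In Resist-Mac vs. Naive-Mac 5 were tested and Fn1, Ecm1 and Thbs1 were called higher in Resist-Mac, against 37.2% of genes called higher and 9% lower, and the groups of Fn1 and Thbs1 did not overlap, against 47.8% of genes. Of these, Thbs1 had entered only through its Resist-Mac level, 5.44 against 0.158 FPKM. In the latter 2 comparisons a call was so common among all genes that the member counts carry little about the members. The median log2 change over all genes was 0.23 in Naive vs. Naive-Mac and 0.34 in Resist-Mac vs. Naive-Mac, and median-ratio scaling moved each to -0.05, with no change in the direction of Fn1, Ecm1, Thbs1, Efemp1 or Crispld2.

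**Figure D5:**
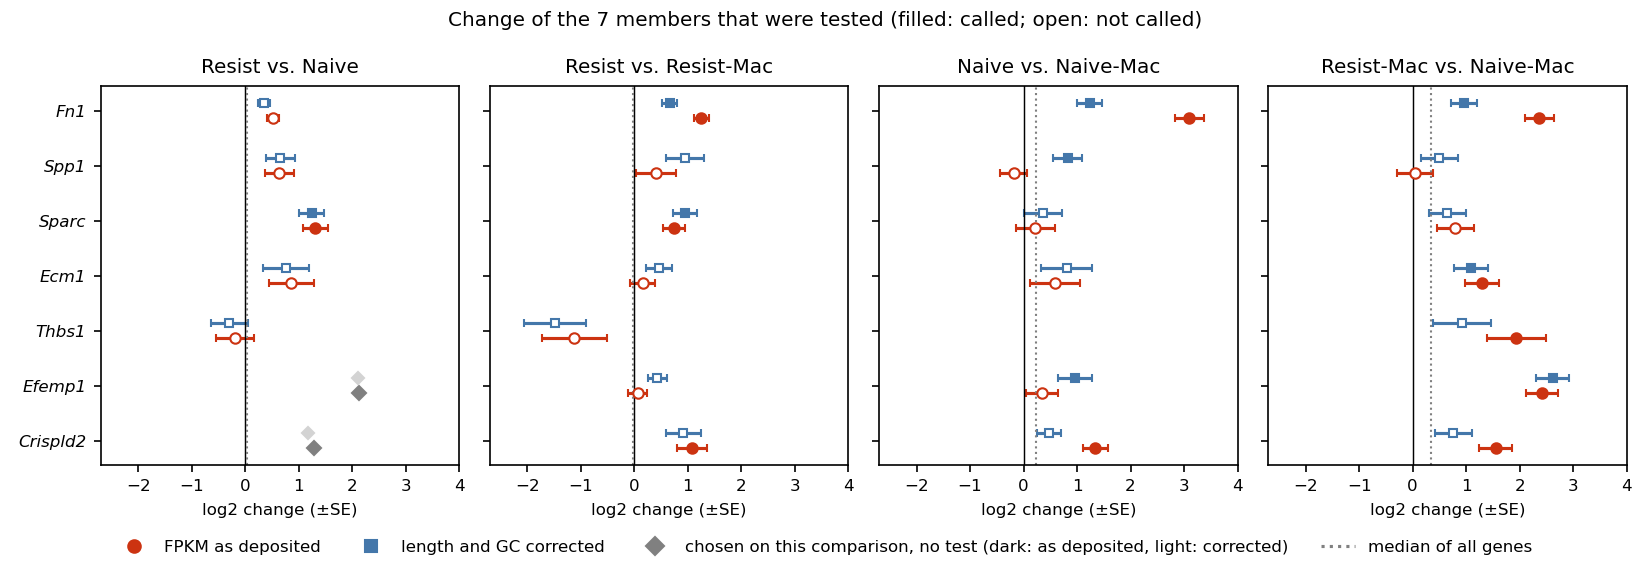
Log2 changes with SE are drawn for the 7 members that were tested, in 4 comparisons, from FPKM as deposited (circles) and after the length and GC correction (squares), filled where called, with the median of all genes dotted. Diamonds mark Efemp1 and Crispld2 in Resist vs. Naive, on which they were chosen, without a test. Fn1 moves most under the correction, from 3.10 to 1.24 in Naive vs. Naive-Mac.

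Whether depletion went with the same difference in resistant and in naive tumors was tested as a difference of differences, (Resist minus Resist-Mac) minus (Naive minus Naive-Mac), in 1 limma fit over all libraries. Fn1 had -1.86 (limma adjusted p = 7.63e-05, SE 0.33) and Thbs1 -2.13 (limma adjusted p = 0.0156, SE 0.71) on the log2 scale. Both were called, against 40.7% of all genes tested. Thbs1 averaged 5.44 FPKM in Resist-Mac, 1.51 in naive, 1.22 in Resist and 0.158 in Naive-Mac tumors. It passed the filter mainly through its Resist-Mac level, so its call is no support for a difference. The Fn1 gap to the depleted group was 7.93-fold in naive and 2.35-fold in resistant tumors. The depleted libraries of resistant and of naive tumors lay in different batches, so batch and tumor state cannot be told apart here. After the length and GC correction, the values were -0.63 (limma adjusted p = 0.0848) for Fn1 and -1.23 (limma adjusted p = 0.163) for Thbs1, and neither was called. Spp1, Sparc and Ecm1 lay between -0.44 and 0.59 with adjusted p of at least 0.308 in limma. No test is given for Efemp1 and Crispld2, because the value contains the levels in Resist and naive tumors on which they were chosen.

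Other core matrix genes were also called in Resist vs. Naive. By log2 change, the leading 5 called higher were Mgp, an inhibitor of calcification (2.88, SE 0.55), the fibrillar collagen Col5a1 (1.73, SE 0.22), Pcolce, an enhancer of procollagen processing (1.68, SE 0.15), the tenascin Tnxb (1.60, SE 0.19) and Ltbp1, which stores latent TGF-β in the matrix (1.21, SE 0.14), each at a limma adjusted p of 0.00465 or less. Mgp averaged 36.6 ± 26.7 FPKM (SD, n = 5) in naive and 273 ± 165 (SD, n = 5) in Resist tumors, and its groups overlapped. The 2 called lower were fibrinogen chains, Fga (-1.88, SE 0.45) and Fgg (-1.49, SE 0.36), while Fgb changed by 0.09 (limma adjusted p = 0.887, SE 0.35). Ccn1 changed by 0.10 (limma adjusted p = 0.673, SE 0.14). In the other 3 comparisons, 15 of 61, 33 of 50 and 31 of 52 core matrix genes that are not members were called higher in the first named group and 2, 3 and 3 lower, against 9.71%, 37.5% and 37.2% of all genes higher. Those comparisons followed transcript length, and the median length of these genes was 3972 to 4496 bases against 3282 to 3341 over all genes tested.

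Receptors of the members were measured in the same libraries. Of the 13 tested in Resist vs. Naive, 5 were called higher and 0 lower, against 5.25% and 1.11% of all genes: Itga5, Cd44, Itgb3, Lrp1 and Sdc1. Itgb3 passed the filter only through its Resist level, 1.92 against 0.656 FPKM in naive tumors, so its call is no support for a difference. Itga5, the α chain of the fibronectin receptor, was at 1.28 on the log2 scale (limma adjusted p = 0.000749, SE 0.17), and its partner chain Itgb1 at 0.12 (limma adjusted p = 0.108, SE 0.05). Cd44, a receptor of osteopontin and hyaluronan, averaged 7.80 ± 0.832 FPKM (SD, n = 5) in naive and 12.9 ± 1.79 (SD, n = 5) in Resist tumors, 0.65 higher on the log2 scale (limma adjusted p = 0.00134, SE 0.10). Itgav, the αv chain, was at 0.26 (limma adjusted p = 0.0221, SE 0.07), under the 1.5-fold limit. Sdc1, a heparan sulfate proteoglycan at the cell surface, was at 0.77 (limma adjusted p = 0.00393, SE 0.14), Itgb3 at 0.80 (limma adjusted p = 0.0120, SE 0.19) and Lrp1, an endocytic receptor of thrombospondin, at 1.19 (limma adjusted p = 0.0385, SE 0.36). Between Resist and Resist-Mac tumors, 2 of 13 receptors were called, a share near that of all genes (9.71% higher and 12% lower), both higher in Resist: Itgav at 1.00 (limma adjusted p = 0.000123, SE 0.13) and Itgb6, a β chain that pairs with it, at 0.59 (limma adjusted p = 0.0301, SE 0.20) with overlapping groups, named after its values were seen, whereas Cd44 (0.12), Itgb1 (-0.0018) and Itga5 (0.45) were not called. In Naive vs. Naive-Mac 8 of 11 and in Resist-Mac vs. Naive-Mac 9 of 12 receptors were called higher in the first named group and 0 lower, against 37.5% and 37.2% of all genes. Itgb6 in the former (2.94 against 0.894 FPKM) and Lrp1 in the latter (2.06 against 0.146) passed the filter only through the higher group. Those calls are no support for a difference.

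Likeness was measured as Pearson's r of deviations of log2(FPKM + 1) from group means over the 20 libraries, for 5896 other genes that averaged 5 FPKM or more in every group. Of the 5 genes most like Spp1, 4 were Emp1 (0.88), Timp1 (0.85), Dbndd2 (0.84) and Ggh (0.84), and without Naive-Mac library 2 these values were 0.79 to 0.85. The 5 most like Fn1 were Foxf2 (0.86), Mast3 (0.84), Ptprs (0.83), Mef2d (0.83) and Atn1 (0.82), of which only Mast3 and Mef2d stayed over 0.5 in batch 1 alone. Fn1 and Spp1 were not close to each other, with 0.40 over all libraries and 0.14 without Naive-Mac library 2. Among the 5 members at 5 FPKM or more in every group, Crispld2 was closest to Spp1 (0.74) and also closest to Fn1 (0.57). Libraries of a table share a batch and cell composition varies between libraries, and the values are a description.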

How the data were processed

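The deposited tables of the authors give FPKM, as log2(FPKM + 1) for naive and Resist tumors and as linear FPKM for Resist-Mac and Naive-Mac tumors. The deposited log2 values were turned back to FPKM, with 2 decimals for 100% of 174850 values. The submitters' processing notes name Bowtie2 and mm9, and the quantification tool and annotation are not given in the sources used here. Genes were named from Entrez identifiers with RefSeq (GRCm38.p6), and the authors' BGI_novel genes (8.45% of FPKM in the first table) were removed. Depth per sample is unknown, so no counting error was given.

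For each comparison, log2(FPKM + 1) of genes averaging 1 FPKM or more entered limma 3.58.1 (R 4.3.3, trend in the prior variance). A call needed a p under 0.05 after Benjamini-Hochberg adjustment together with a change of more than 1.5-fold. A fold change on this scale understates that of low genes. The Spp1 to Fn1 ratio was compared by exact permutation (scipy 1.17.1, Python 3.11.15). Transcript length and GC content came from GENCODE M21, and the correction fitted splines with 4 degrees of freedom in each library. It also removes any true change that runs with length.

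Genes named were the 10 members, the 10 core matrix genes of highest level, up to 5 other core matrix genes of largest change in each direction in Resist vs. Naive, the 5 genes most like Fn1 and Spp1, and receptors (Itga5, Itgav, Itgb1, Cd44 and those called in that comparison, with Itgb6 added after its values were seen). Members and lists were chosen with earlier results of these data known. Alternatives were a pseudocount of 0.1, a filter of 5 FPKM or none, median-ratio scaling, a noise-distribution probability over 0.8, a replicate block, all groups in one fit, the length and GC correction, and leaving out each replicate. For shares they were matrix glycoproteins alone and length weighting. The joint removal of naive library 5, Resist library 2 and Naive-Mac library 2 was added after seeing the data. The procedure was tested on simulated data. P-values measure the spread between pools of 3 mice. Monocytes and macrophages were not analysed here. One gene that the rule names and one marker are not reported here.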

Additional observations from a re-analysis of the deposited data

Results flagged for a closer look

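Within groups of 5 libraries, 14 measures (FPKM of the 10 members, the Fn1 and Spp1 shares, the log2 ratio and the summed matrix FPKM) gave 56 sets of values. In 8 of them 1 library lay far from the other 4, by a gap over Dixon's 95% critical value, where chance gives about 2.8. Naive-Mac library 2 accounts for 5, with Spp1 at 3943 FPKM against 1367 to 1668 in the others, Efemp1 at 11.4 against 2.33 to 4.27, Ecm1 at 16.8 against 3.69 to 6.26, a Spp1 share of 61.2% against 42.2% to 47.2%, and a matrix sum of 6443 FPKM against 3190 to 3820. This library also had the lowest neutrophil marker sum of its group, 58.6 FPKM against 760 to 6156. Naive library 5 had Ecm1 at 37.6 FPKM against 5.80 to 13.0 and a matrix sum of 9179 FPKM against 5723 to 6368. Resist library 2 had Spp1 at 5820 FPKM against 1800 to 2499.

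The gap to the macrophage-depleted group differed between resistant and naive tumors by -1.86 on the log2 scale for Fn1 (limma adjusted p = 7.63e-05) and by -2.13 for Thbs1 (limma adjusted p = 0.0156). In the limma fit 40.7% of all genes tested differed in this way, and the 3 batches cannot be told apart from the conditions in it. Thbs1 passed the filter of that fit mainly through its Resist-Mac level, so its call is no support for a difference. Thbs1 also moved with the neutrophil and macrophage marker sums inside each group, and the part of those cells was not tested.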

How the results depend on the processing

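Of the 8 members not chosen on Resist vs. Naive, 1 was called there, 2 against Resist-Mac, 1 for Naive vs. Naive-Mac and 3 for Resist-Mac vs. Naive-Mac. Leaving out each replicate gave 1 to 2, 1 to 3 (1 without Resist-Mac library 5), 1 to 1 and 3 to 4. The noise-distribution probability called 2 in Resist vs. Naive and 1 for Resist vs. Resist-Mac, where all 4 groups in one fit also called 1. In Naive vs. Naive-Mac no filter and the length and GC correction each called 2. The difference of differences kept 2 calls without each replicate and had 0 with the length and GC correction. Leaving out naive library 5, Resist library 2 and Naive-Mac library 2 gave 2 calls in Resist vs. Naive and 1 in the difference of differences. The replicate block called 1, 2, 1 and 4 members and 2 in the difference of differences. It added Sparc in Resist-Mac vs. Naive-Mac and changed no other member call, and same-numbered libraries did not deviate together (r -0.376 to 0.356), so no paired result is given elsewhere.

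The log2 Spp1 to Fn1 difference ran without each replicate from -0.15 to 0.29 between Resist and naive and from -1.11 to -0.53 between Resist and Resist-Mac tumors. Without the 3 libraries it was -0.093 and -1.11. With the length and GC correction it was 0.31 in Resist vs. Resist-Mac and -0.49 in Resist-Mac vs. Naive-Mac. The joint Fn1 and Spp1 share in Naive-Mac tumors was 40.1% weighted by length and 40.6% after the correction.

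Some single log2 changes turned sign. Leaving out each replicate gave -0.38 to 0.050 for Thbs1 in Resist vs. Naive, -0.029 to 0.31 for Ecm1 and -0.028 to 0.19 for Efemp1 between Resist and Resist-Mac tumors, -0.023 to 0.48 for Sparc and -0.30 to 0.086 for Spp1 in Naive vs. Naive-Mac, -0.22 to 0.31 for Spp1 in Resist-Mac vs. Naive-Mac and -0.75 to 0.0094 for Ecm1 in the difference of differences. Without the 3 libraries Thbs1 was at 0.097 in Resist vs. Naive and Efemp1 at -0.020 in Resist vs. Resist-Mac. Median-ratio scaling gave -0.034 for Sparc in Naive vs. Naive-Mac, -0.42 for Spp1 in Resist-Mac vs. Naive-Mac, and 0.0097 for Efemp1 and 0.089 for Crispld2 in the difference of differences. The length and GC correction gave 0.83 for Spp1 in Naive vs. Naive-Mac, which was then called, and 0.40 for Crispld2 in the difference of differences. The cause of these shifts was not tested.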
